A study of Mus musculus with 12 samples.

Results

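The 7 Tg2576 (Tg) libraries of the series were divided by how much App they held. The 4 libraries of mice 67, 68, 69 and 93 had more than 4000 CPM of App (read counts scaled to library size, with normalization by the trimmed mean of M values, TMM) and are called App-high, and the 3 libraries of mice 32, 91 and 92 had less and are called App-low. They are 7 of 12 libraries, and the other 5 came from wild type (Wt) mice. Because the groups were chosen by App CPM, App is described without a test, and the comparison asks how other genes stood between Tg mice with more and with less App.

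App encodes the amyloid precursor protein, a membrane protein of neurons and other cells that is cut in turn by β-secretase and γ-secretase to release amyloid-β peptides. Tg2576 mice add a human APP gene with the Swedish mutation, which lies beside the β-secretase cut and increases that cut, and the promoter of the hamster prion protein gene drives it. Prnp is the mouse prion protein gene, whose product sits on the surface of neurons, and it was taken as the second marker of the split.

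The counts are per mouse gene. Reads of the mouse gene and reads of the human transgene that align to it cannot be told apart in them, so "App" below is their sum. Mouse App lies at chr16:84949685-85173766 on the minus strand of GRCm38 and the β-secretase cut falls in exon 16 of 18 of its longest protein-coding transcript in GENCODE. The mouse coding sequence around that cut, at chr16:84965697-84965750 on the minus strand, is shown since it is where the transgene's mutation sits. Capitals mark the pair of codons just before the cut, which the Swedish mutation replaces in the human gene.
App: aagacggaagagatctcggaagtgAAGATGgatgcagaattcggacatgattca

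The tissue was a mixture of hippocampus and cortex, the mice were labelled as 11 months old, and the labels name no drug or diet. The 3 App-low mice were all female and in library batch 1. Of the App-high mice, 67 was male in batch 1, 68 and 69 were male in batch 2, and 93 was female in batch 1. The Wt mice were 12 (female) and 41 and 95 (male) in batch 1, and 79 and 80 (female) in batch 2. The split therefore nearly follows sex, and no App-low mouse was male or in batch 2. Mouse 93 was the App-high mouse that matched the App-low mice in both. Litters and the copy number of the transgene are not in the sources used here, and each library is 1 mouse.

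Between 15768135 and 20996174 reads per library were counted over 15928 rows. The rows carry no names, and 1345 of them were named through the study's table of genes it had compared between Tg and Wt mice. That table was made from these same libraries, so the side of Wt on which a named gene lies is not independent evidence. The comparison between App-high and App-low mice was not part of that table. A gene may still have entered it because only App-low or only App-high mice lay far from Wt. The named genes are thus not a neutral sample for the comparison of App-high with App-low mice. Xist, the RNA of the inactive X chromosome, was at 154, 165 and 233 CPM in the App-low females 32, 91 and 92 and at 173 CPM in the App-high female 93. It was at 0, 0.0505 and 0 CPM in the App-high males 67, 68 and 69, so the Tg labels of sex hold. The Wt library labelled male of mouse 41 had 199 CPM of Xist, against its label, while the other male Wt library had 0.0563 CPM. Markers of the choroid plexus, the tissue that makes cerebrospinal fluid, set 2 App-high libraries apart: their summed level was 111 CPM in mouse 67 and 108 CPM in mouse 93, against 1880 to 2242 CPM in mice 68 and 69 and 1354 to 2431 CPM in the App-low mice.

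App was at 2991, 3147 and 3393 CPM in the App-low mice 91, 92 and 32. It was at 5140, 5145, 5198 and 5727 CPM in the App-high mice 68, 93, 67 and 69. The 5 Wt libraries lay between 1214 and 1496 CPM. The 3 groups did not overlap, and the members closest to the split were mouse 32 below it and mouse 68 above it, 1746 CPM apart, which is more than the 402 CPM spanned by the App-low libraries and the 587 CPM spanned by the App-high ones.

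The mean App level was 1365 ± 101 CPM (SD, n = 5) in Wt, 3177 ± 203 CPM (SD, n = 3) in App-low and 5302 ± 284 CPM (SD, n = 4) in App-high mice. App-low mice thus held 2.33 times and App-high mice 3.89 times the Wt mean. Above the Wt mean, App-low mice had 1812 ± 203 CPM and App-high mice 3938 ± 284 CPM more, a ratio of 2.17. Within the App-high group the female 93 (5145 CPM) lay among the males (5140 to 5727 CPM), and the batch 1 mice 67 and 93 lay within the range of the batch 2 mice 68 and 69. App was among the most counted genes: it ranked 12 to 14 in App-high, 20 to 25 in App-low and 45 to 48 in Wt libraries.

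**Figure D1:**
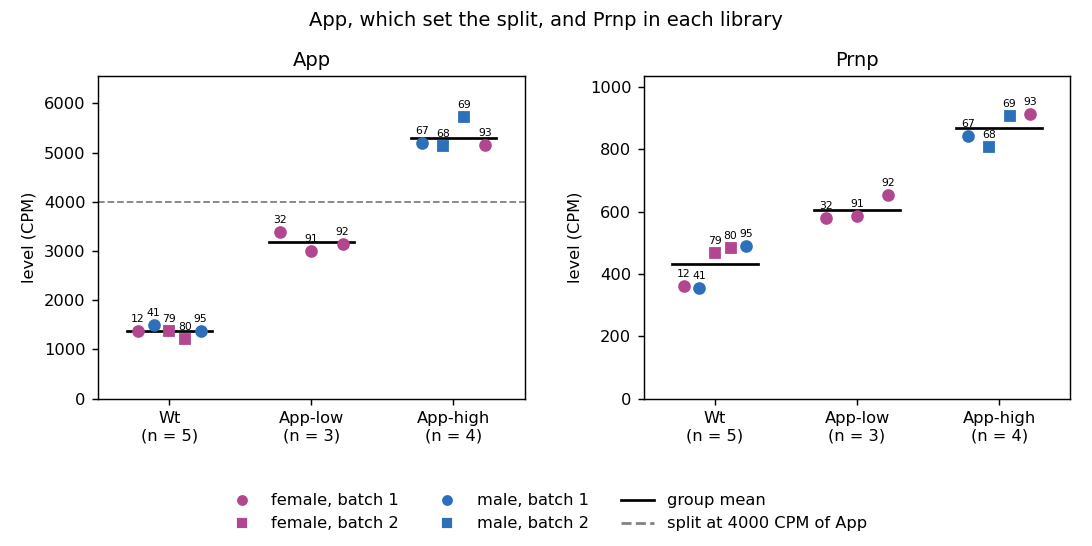
Level of App (left) and Prnp (right) in CPM, 1 point per mouse with its number, by group; colour gives sex, shape gives library batch, the short line is the group mean and the dashed line the 4000 CPM of App that set the groups. App-high libraries sit at 5140 to 5727 CPM of App and 808 to 913 CPM of Prnp, above every App-low library for both genes.

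Prnp, at chr2:131909928-131938429 on the plus strand, was ordered as App was. It was at 579, 587 and 654 CPM in the App-low mice 32, 91 and 92. It was at 808, 845, 908 and 913 CPM in the App-high mice 68, 67, 69 and 93, and between 355 and 491 CPM in the Wt mice. Each App-high library was above each App-low library, and each App-low library above each Wt library. The App-high female of batch 1, mouse 93, had the highest Prnp of all. Its place above the App-low females follows from the lack of overlap and adds nothing to it.

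The Prnp difference between App-high and App-low mice was 0.50 ± 0.18 (log2 fold change, SE) with sex and batch in the fit, or 1.43 times by the group means. It was not called over all rows, with an adjusted p of 1 by edgeR's quasi-likelihood test and an unadjusted p of 0.0166. The exact permutation test over the 35 ways to divide 7 libraries into 4 and 3 gave p = 0.0571 (two-sided), which is the smallest p it can give, so no gene could pass 0.05 by that test. Within batch 1 the difference was 0.50 as well. Without mouse 93 it was 0.26. In that fit, and in each fit without mouse 93 below, the App-high mice were all male and the App-low mice all female. Group and sex were then separated through the Wt libraries alone. Without mice 67 and 93 together the fitted value turned to -0.13. The App-high mice left in that fit, 68 and 69, are males of batch 2 and the App-low mice females of batch 1, so that group, sex and batch were separated there through the Wt libraries alone. By their levels, mice 68 and 69 (808 and 908 CPM) were above every App-low mouse. Above the Wt mean, Prnp had 175 ± 41.2 CPM more in App-low and 437 ± 50.9 CPM more in App-high mice.

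Against Wt mice, Prnp rose in App-high mice by 1.02 ± 0.13 on the log2 scale (adjusted p = 0.0288, edgeR). It was the 1 row called of 15927, with App left out because it set the split. The call was lost without Wt mouse 41 or 79, or without Tg mouse 67, 69 or 93, within batch 1, with Wt mouse 41 taken as female, and without mice 67 and 93 together. In App-low mice its difference from Wt was 0.52 ± 0.15 on the log2 scale (adjusted p = 0.429, edgeR). Both comparisons use the same 5 Wt libraries. Reads of mouse Prnp and reads of prion gene sequence carried with the transgene cannot be told apart in these counts.

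The count of calls over the other rows depended on the fit. Of 15927 rows besides App, 0 were called higher and 0 lower in App-high than in App-low mice at an adjusted p under 0.1 by edgeR (0% in each direction), and the smallest adjusted p was 0.358, in a row without a name. At an unadjusted p under 0.05 there were 167 rows higher (1.05%) and 276 rows lower (1.73%), 443 in all. DESeq2 called 10 rows, 5 in each direction. With the 7 Tg libraries alone and sex and batch in the fit, edgeR called 34 rows (31 lower), and without Wt mouse 12 it called 48 (44 lower). Among the 1344 named genes other than App, 18 were higher (1.34%) and 65 lower (4.84%) at an unadjusted p under 0.05.

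The groups were also compared by their libraries alone, without a model. Every App-high library was above every App-low library in 509 rows (3.2%), and below in 485 rows (3.05%). Of the named genes, 56 lay wholly above (4.17%) and 65 wholly below (4.84%). In 2 rows (0.0126%) each App-high library was above each App-low library and each of these above each Wt library. They are Prnp and Wdsub1, which was picked out after its values were seen. Wdsub1, a protein with WD repeats, was at 6.17 to 6.43 CPM in App-low, 6.58 to 7.88 CPM in App-high and 4.16 to 6.13 CPM in Wt mice, and its difference between App-high and App-low mice was 0.24 ± 0.24 (log2, SE).

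In the main directions of variance over the 7 Tg libraries the groups were mixed. The first component (28.4% of the variance of log2 CPM) ran from -33.4 to 17.9 in App-low and from -2.90 to 35.4 in App-high libraries, which overlapped. The second component (25.4%) set mouse 93 apart at 42.0, with the other 6 libraries between -22.1 and 8.19.

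The named genes whose levels followed App most closely over the 7 Tg libraries were Hk1, Prnp, Ctgf, Scn10a and Cdh10, with Pearson correlations of log2 CPM of 0.977, 0.951, 0.933, 0.931 and 0.929. These are descriptions over 7 libraries that share the split by sex and batch. The genes were picked for following App, which set the split, so a lack of overlap between the groups was favoured in advance. Of all named genes 4.17% lay wholly above, and 3.2% of all rows. Hk1 encodes hexokinase 1, the main enzyme that starts glycolysis in neurons. It was at 233, 216 and 231 CPM in the App-low mice 32, 91 and 92 and at 268, 264, 258 and 276 CPM in the App-high mice 67, 93, 68 and 69. The Wt libraries, at 226 to 339 CPM, covered every App-high and 2 of the 3 App-low libraries, and the difference was 0.19 ± 0.14 (log2, SE).

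Ctgf encodes connective tissue growth factor, a secreted matrix protein of deep cortical neurons and vessels. It was at 15.6, 14.4 and 13.8 CPM in the App-low mice 32, 91 and 92. It was at 20.5, 19.5, 18.8 and 18.2 CPM in the App-high mice 67, 93, 68 and 69, and the lowest Wt library had 18.4 CPM. The App-low libraries were thus below every Wt library, and of the App-high ones only mouse 69 was, by a small margin. Cdh10, a cadherin of synapses, had its App-low libraries below every Wt library as well, with 28.7 to 30.3 CPM in App-low, 32.8 to 36.6 CPM in App-high (mice 93 and 68 also below every Wt library) and 34.2 to 40.1 CPM in Wt mice.

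Scn10a, a voltage-gated sodium channel best known from sensory neurons, was a rare transcript here. It was at 0.957, 0.758 and 1.23 CPM in the App-low mice 32, 91 and 92 and at 1.90, 2.07, 1.92 and 1.88 CPM in the App-high mice 67, 93, 68 and 69. Wt mouse 80 reached 1.71 CPM, and the other 4 Wt mice lay at 0.642 to 0.833 CPM. In this gene the App-high libraries lay above all others. Its difference was 1.02 ± 0.47 (log2, SE, adjusted p = 1 by edgeR).

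**Figure D2:**
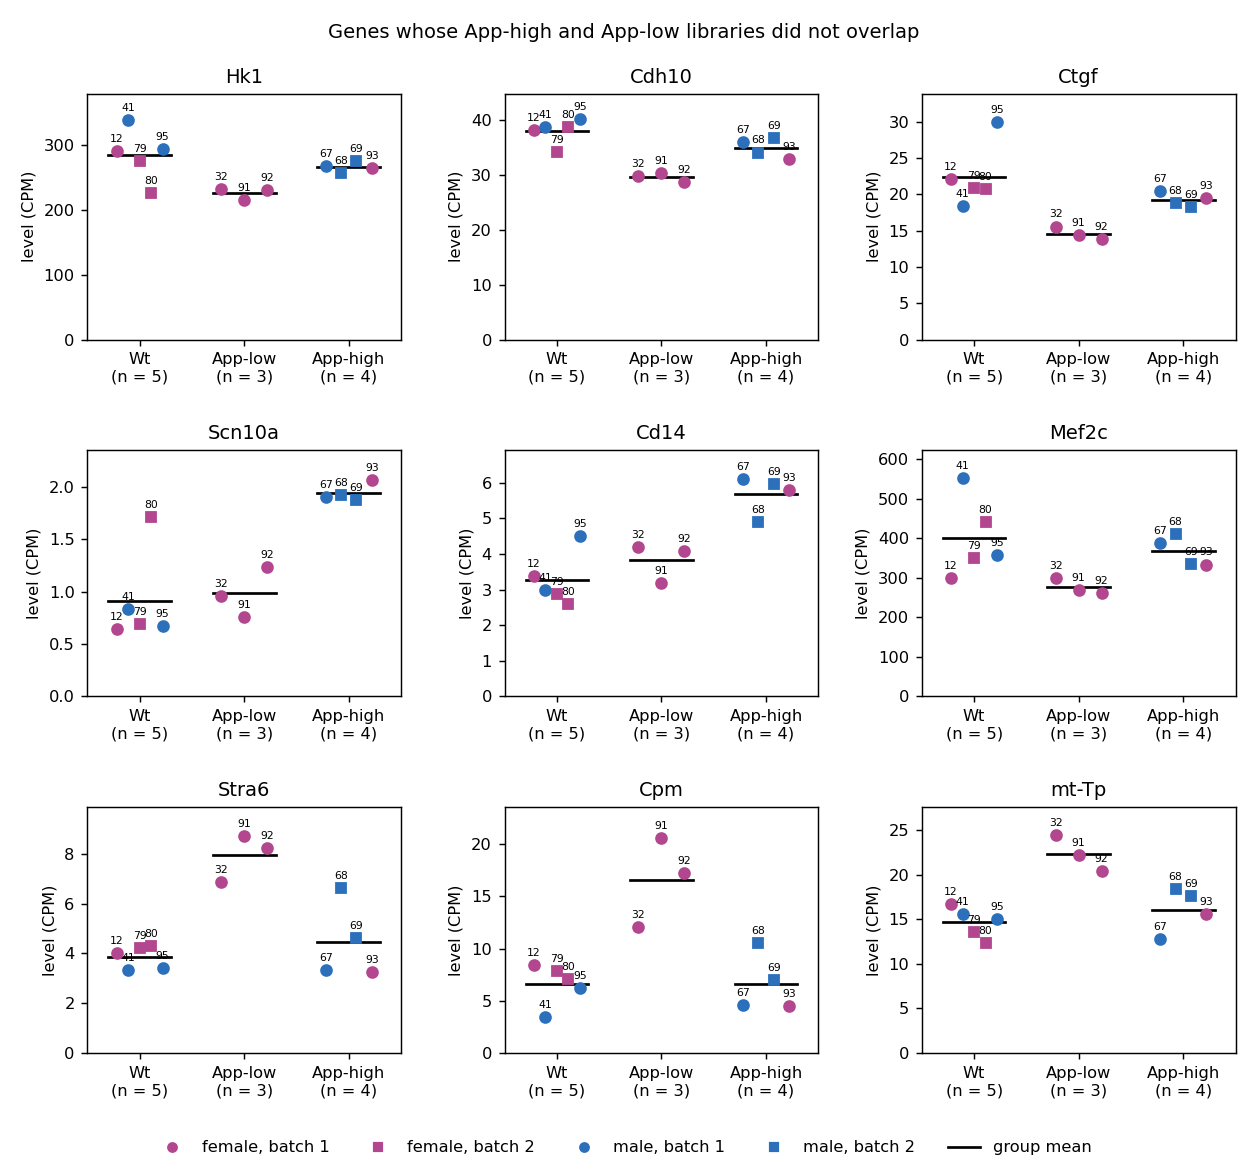
Level in CPM of 9 genes whose App-high and App-low libraries did not overlap, 1 point per mouse with its number; colour gives sex, shape gives library batch and the short line is the group mean. In the upper 6 panels App-high libraries lie above App-low ones (Hk1 at 258 to 276 against 216 to 233 CPM) and in the lower 3 below them (Stra6 at 3.24 to 6.62 against 6.86 to 8.71 CPM).

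The 10 named genes with the smallest p between the groups were Wfdc2, Col8a2, Baiap3, Stra6, Cpm, Emilin2, Drc7, Perp, Prlr and Rbm47, and none of them was called by edgeR. Of these, 9 were lower in App-high mice and Baiap3 was higher. Stra6, the cell surface receptor that takes up retinol, was at 6.86, 8.71 and 8.25 CPM in the App-low mice 32, 91 and 92. It was at 3.34, 3.24, 6.62 and 4.60 CPM in the App-high mice 67, 93, 68 and 69, and at 3.33 to 4.32 CPM in Wt mice. The groups did not overlap, and 3 of the 4 App-high libraries were in or close to the Wt range. Its difference was -1.20 ± 0.30 (log2, SE, unadjusted p = 0.0019, adjusted p = 1 by edgeR).

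Cpm, the gene of the membrane enzyme carboxypeptidase M, was at 12.1, 20.6 and 17.2 CPM in the App-low mice 32, 91 and 92 and at 4.55, 4.47, 10.5 and 6.95 CPM in the App-high mice 67, 93, 68 and 69. The Wt libraries held 3.44 to 8.46 CPM. Emilin2, an extracellular matrix glycoprotein, had 4.31, 12.3 and 5.19 CPM in the App-low mice and 2.13, 1.68, 3.38 and 3.90 CPM in the App-high mice in the same order. In both genes the App-high libraries lay below the App-low ones without overlap, and mice 67 and 93 were the lowest.

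Baiap3, which takes part in the release of dense-core vesicles, was at 71.8, 77.0 and 54.5 CPM in the App-low mice 32, 91 and 92. It was at 85.7, 124, 64.3 and 80.3 CPM in the App-high mice 67, 93, 68 and 69, so the groups overlapped, and mouse 93 was far above the rest. Wt libraries ranged from 31.1 to 85.4 CPM. The difference was 0.99 ± 0.23 with sex and batch in the fit (log2, SE, unadjusted p = 0.0011) and 0.39 without them.

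The choroid plexus list moved with the split through mice 67 and 93. Ttr, which carries thyroxine and retinol and is the most abundant transcript of that tissue, was at 898, 1581 and 1238 CPM in the App-low mice 32, 91 and 92. It was at 7.21 and 11.7 CPM in the App-high mice 67 and 93 and at 1492 and 1278 CPM in the App-high mice 68 and 69. Wt mice had 16.9 to 371 CPM. The App-high group was therefore split in itself, with mice 68 and 69 in the App-low range and mice 67 and 93 below every Wt mouse.

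All 23 named markers of the choroid plexus were lower in App-high mice by the fitted value, with a median of -2.39 against -0.006 over all rows. The median was -0.93 without sex and batch in the fit and -3.02 within batch 1, with all 23 lower in both. Of them 9 had an unadjusted p under 0.05, where 1.73% of all rows and 4.84% of named genes were lower at that threshold, and 0 were called. Against Wt, all 23 had an unadjusted p under 0.05 (edgeR) in App-low mice and 1 in App-high mice. Of all 15927 rows besides App, 1163 had such a p in App-low mice and 461 in App-high mice, in either direction. The naming of rows through Tg against Wt is thus not neutral for this list. The adjusted fit rests on mouse 93: without it 12 were lower and 11 higher with a median of -0.47, and without mice 67 and 93 there were 20 higher with a median of 2.80. In that last fit, too, group, sex and batch were separated through the Wt libraries alone, and the sums of mice 68 and 69 (2242 and 1880 CPM) lay within the App-low range (1354 to 2431 CPM). With 7 Tg libraries alone and sex and batch in the fit, 15 of the 23 were called. In these bulk samples fewer choroid plexus cells and less RNA per cell cannot be told apart.

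Col8a2, a collagen chain of that list, was at 9.68, 11.9 and 10.4 CPM in the App-low mice 32, 91 and 92 and at 1.79, 1.17, 9.55 and 8.08 CPM in the App-high mice 67, 93, 68 and 69. Prlr, the prolactin receptor, was at 11.5, 18.7 and 17.3 CPM in the App-low and 3.34, 5.03, 10.6 and 10.6 CPM in the App-high mice in the same order. They were the 2 markers of 23 without overlap between the groups, a share near that of all named genes (4.84% wholly below, 3.05% of all rows), and in both the batch 2 mice 68 and 69 lay below the lowest App-low mouse by a small margin. Wfdc2, a secreted protein of epithelia, ranged from 1.43 to 2.76 CPM in App-low and from 0.168 to 1.57 CPM in App-high mice. With App left out because it set the split, these 3 genes were the rows called between App-low and Wt mice, all higher in App-low mice. No row was called there without covariates, with the choroid plexus score in the fit, within batch 1, or without Tg mouse 68, 69, 91 or 93. Drc7, a part of the motor machinery of cilia, was at 6.38 to 10.5 CPM in App-low mice, at 1.04 and 0.893 CPM in mice 67 and 93 and at 5.66 and 7.52 CPM in mice 68 and 69. Perp, of cell junctions, and Rbm47, an RNA-binding protein of epithelia, had the same layout, with 1.28 to 1.67 CPM and 1.1 to 1.23 CPM in mice 67 and 93 and 3.33 to 4.13 CPM and 4.60 to 4.95 CPM in mice 68 and 69.

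**Figure D3:**
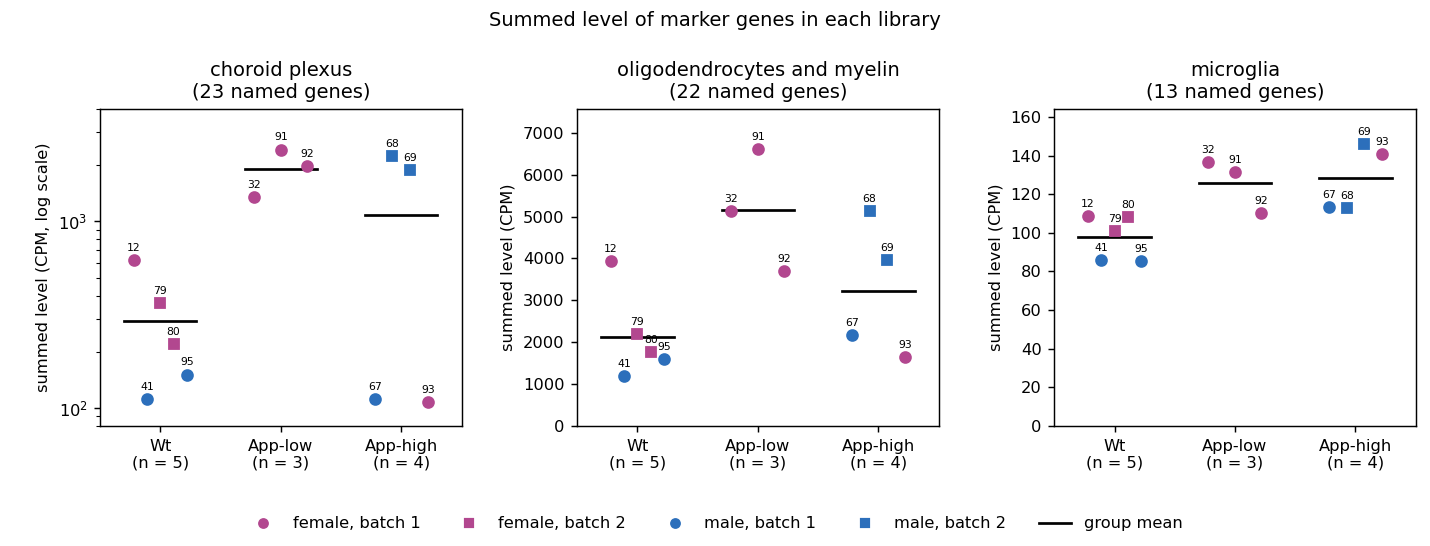
Summed level in CPM of the named markers of choroid plexus (left, log scale), oligodendrocytes and myelin (middle) and microglia (right), 1 point per mouse with its number; colour gives sex, shape gives library batch and the short line is the group mean. Mice 67 and 93 hold 111 and 108 CPM of choroid plexus markers, against 1880 CPM or more in the other App-high mice, while the microglial sums of App-high (113 to 146 CPM) and App-low mice (110 to 137 CPM) overlap.

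Myelin genes showed the same layout at a smaller size. Mbp, the myelin basic protein, was at 2431, 2999 and 1631 CPM in the App-low mice 32, 91 and 92 and at 1064, 680, 2338 and 1882 CPM in the App-high mice 67, 93, 68 and 69. Mice 67 and 93 were again the lower pair, and mice 68 and 69 lay within the App-low range. All 22 named oligodendrocyte and myelin genes were lower in App-high mice by the fitted value, with a median of -0.76 (-0.62 without sex and batch in the fit). Of them 3 had an unadjusted p under 0.05, where 1.73% of all rows and 4.84% of named genes were lower at that threshold, and 0 were called. Those 3 were Ermn (-1.38 ± 0.58), Gjc3 (-0.93 ± 0.40) and Mal (-1.06 ± 0.46, all log2 and SE), which encode a cytoskeletal protein, a gap junction protein and a lipid raft protein of myelinating cells. Against Wt, 21 of the 22 had an unadjusted p under 0.05 (edgeR) in App-low mice and 1 in App-high mice. Over all 15927 rows besides App the counts were 1163 in App-low mice and 461 in App-high mice, in either direction. The naming of rows is thus not neutral for this list either. Without mouse 93 the list turned by the fitted value, with 19 of 22 higher and a median of 0.62. Group and sex were separated there through the Wt libraries alone. By level, Mbp in mice 67, 68 and 69 (1064, 2338 and 1882 CPM) was not above the App-low range (1631 to 2999 CPM).

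Microglial genes were slightly higher in App-high mice by the fitted value, in 12 of 13 named markers, with a median of 0.27, and 0 had an unadjusted p under 0.05. Without mouse 93 there were 9 of 13 higher with a median of 0.37, and without sex and batch in the fit 8 of 13 with a median of 0.19. Their summed level was 113, 141, 113 and 146 CPM in the App-high mice 67, 93, 68 and 69 and 137, 131 and 110 CPM in the App-low mice 32, 91 and 92, which overlapped. Wt mice had 85.6 to 109 CPM, less than every Tg mouse, but the margin was small (108.6 CPM in Wt mouse 12, 110.1 CPM in Tg mouse 92). These markers were named through Tg against Wt mice, so their side of Wt is not independent evidence. Cd14, a co-receptor for bacterial lipopolysaccharide, was the 1 marker of 13 wholly above, where 3.2% of all rows and 4.17% of named genes were. Its level in Wt mice was 2.60 to 4.50 CPM. It was at 4.2, 3.19 and 4.09 CPM in the App-low and 6.11, 5.81, 4.90 and 5.97 CPM in the App-high mice in the same order, a difference of 0.58 ± 0.29 (log2, SE, adjusted p = 1 by edgeR).

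Ly86, a partner of a Toll-like receptor homologue, was at 4.10, 4.92 and 2.53 CPM in the App-low mice 32, 91 and 92 and at 3.11, 8.37, 3.64 and 7.94 CPM in the App-high mice 67, 93, 68 and 69. Mice 93 and 69 were high and mice 67 and 68 within the App-low range. Ptpn6, a phosphatase of immune cells, was likewise high in mice 93 and 69, at 4.63 and 4.23 CPM, against 2.77 and 2.88 CPM in mice 67 and 68 and 2.79 to 3.46 CPM in the App-low mice. Of the 9 named genes of plaque-associated microglia, 5 were higher and 4 lower, with a median of 0.14 (8 of 9 higher and 0.65 without mouse 93). Among them Lgals3bp, a secreted glycoprotein, differed by 0.41 ± 0.21, Ctsz, a lysosomal protease, by 0.46 ± 0.31 and Fth1, the ferritin heavy chain, by -0.39 ± 0.19 (log2, SE, none called). Cst7, a defining gene of that state, was not among the named rows, and its level is not analysed here.

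Astrocyte genes did not move one way: 6 of 15 named markers were higher and 9 lower in App-high mice, with a median of -0.03 (8 of 15 higher and 0.22 without mouse 93). Gfap, the intermediate filament that reactive astrocytes make, was at 260, 231 and 234 CPM in the App-low mice 32, 91 and 92. It was at 184, 329, 286 and 280 CPM in the App-high mice 67, 93, 68 and 69, so that 3 App-high libraries were above and mouse 67 below every App-low library. The Wt mice held 49.6 to 208 CPM. The difference was 0.46 ± 0.34 (log2, SE, adjusted p = 1 by edgeR). Adk, adenosine kinase, was at 42.3 to 46.3 CPM in App-low and 31.5 to 45.3 CPM in App-high mice, with mouse 93 the lowest. Slc1a3, a glutamate transporter, and Itpkb, an inositol phosphate kinase, overlapped between the groups, with differences of 0.25 ± 0.16 and -0.26 ± 0.19.

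Of the genes that cut, sort or clear the precursor or its products, 4 were named besides App, and none was called. Ace, the angiotensin-converting enzyme, which can degrade amyloid-β, was at 57.9, 70.6 and 61.1 CPM in the App-low mice 32, 91 and 92 and at 25.6, 29.3, 51.6 and 55.9 CPM in the App-high mice 67, 93, 68 and 69. The App-high libraries were all lower, with mice 67 and 93 again apart, and the Wt libraries lay at 20.3 to 42.4 CPM. Ace was the 1 member of 4 wholly below, where 3.05% of all rows and 4.84% of named genes were. Ctsd, a lysosomal protease, was at 263 to 300 CPM in App-low and 277 to 314 CPM in App-high mice. Furin, which activates secretases, was at 36.2 to 47.4 CPM in App-low and 36.9 to 40.5 CPM in App-high mice. Sorl1, the receptor that steers the precursor away from cleavage and the last named member of that list, differed by -0.06 on the log2 scale. The secretase genes themselves were not among the named rows and are not analysed here.

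Genes of the excitatory synapse were higher in App-high mice in 19 of 23 named members by the fitted value, with a small median of 0.07, and 0 had an unadjusted p under 0.05. Dlgap2, a scaffold of the postsynaptic density, was at 79.2, 64.3 and 72.3 CPM in the App-low mice 32, 91 and 92 and at 106, 86.8, 82.1 and 81.2 CPM in the App-high mice 67, 93, 68 and 69. It was 1 of 3 members of 23 wholly above, where 3.2% of all rows and 4.17% of named genes were. Slc17a7, the vesicular glutamate transporter of cortical neurons, was at 973 to 1254 CPM in App-low and 1254 to 1503 CPM in App-high mice. Cacna1e, a calcium channel, was at 396 to 457 CPM in App-low and 382 to 515 CPM in App-high mice. Without mouse 93 the list had 7 of 23 higher, with a median of -0.11.

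Mef2c, a transcription factor of excitatory neurons, was at 301, 268 and 262 CPM in the App-low mice 32, 91 and 92. It was at 387, 334, 412 and 335 CPM in the App-high mice 67, 93, 68 and 69, above every App-low library and inside the Wt range of 300 to 552 CPM. Mef2c was the 1 of 7 named cortical and hippocampal markers wholly above, where 3.2% of all rows and 4.17% of named genes were. Its difference was 0.17 ± 0.22 with sex and batch in the fit and 0.41 without them, and -0.10 without mouse 93. The cortical and hippocampal markers as a list were mixed, 3 of 7 higher with a median of -0.02. Prox1, of dentate granule cells, differed by -0.66 ± 0.27 (log2, SE, unadjusted p = 0.0274, edgeR) and Lhx2, of cortical progenitors and neurons, by 0.22 ± 0.24.

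Markers of regions outside cortex and hippocampus were spread widely. Zic1, a transcription factor of septal and thalamic cells, was at 37.3, 52.1 and 13.0 CPM in the App-low and 14.3, 5.97, 37.8 and 13.6 CPM in the App-high mice in the same order. The range within each group was wider than the difference between them. Six3 and Zic2 differed by 1.04 ± 1.01 and 0.32 ± 0.22. The median of the 7 named markers was -0.08, and without mouse 93 all 7 were higher with a median of 0.83.

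Activity-regulated genes had 5 of 13 named members higher and a median of -0.09. Dusp6, a phosphatase that limits ERK signalling, was at 50.7 to 56.8 CPM in App-low and 45.3 to 50.5 CPM in App-high mice, without overlap. It was 1 of 2 members of 13 wholly below, where 3.05% of all rows and 4.84% of named genes were. Nr4a3, a nuclear receptor, differed by -0.67 ± 0.40 and Scg2, a granule protein, by 0.26 ± 0.19. The inhibitory neuron list held 4 named genes, all higher by the fitted value. Reln, the secreted guidance protein reelin, differed by 0.47 ± 0.15 (log2, SE, unadjusted p = 0.00796, adjusted p = 1 by edgeR), but its App-low libraries (155 to 174 CPM) lay inside the App-high range (141 to 232 CPM). Cort, the neuropeptide cortistatin, was at 1.30 to 1.54 CPM in App-low and 1.56 to 2.42 CPM in App-high mice, and Gad2, which makes GABA, at 147 to 196 CPM and 134 to 167 CPM.

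**Figure D4:**
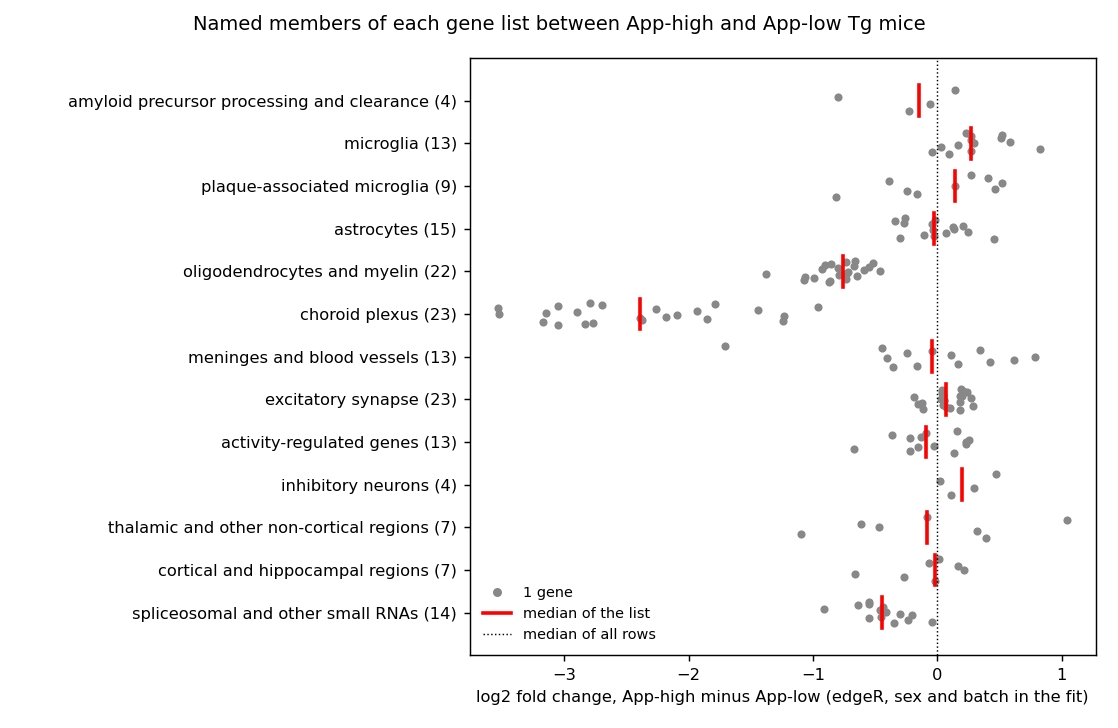
Log2 fold change of App-high minus App-low mice, from the edgeR fit with sex and batch, for each named member of 13 gene lists (grey points); the red bar is the median of the list, the dotted line the median of all rows (-0.006), and the number after each name counts its named members. The choroid plexus list has a median of -2.39 and the myelin list of -0.76, and the other lists have medians between -0.45 and 0.27.

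Small RNAs were lower in App-high mice in all 14 named members by the fitted value, with a median of -0.45. Without sex and batch in the fit 12 of 14 were lower with a median of -0.20. With them 2 had an unadjusted p under 0.05, where 1.73% of all rows and 4.84% of named genes were lower at that threshold. Both were mitochondrial transfer RNAs. mt-Tc, for cysteine, was at 11.5, 14.9 and 13.5 CPM in the App-low mice 32, 91 and 92 and at 10.3, 5.92, 9.75 and 9.68 CPM in the App-high mice 67, 93, 68 and 69. mt-Tp, for proline, was at 24.5, 22.2 and 20.4 CPM in the App-low and 12.8, 15.6, 18.4 and 17.6 CPM in the App-high mice. mt-Th, for histidine, was at 11.4 to 13.7 CPM and 8.42 to 10.2 CPM. The groups did not overlap in these 3 genes, and 5 of the 14 members lay wholly below, where 3.05% of all rows and 4.84% of named genes did. The App-low libraries were above every Wt library, which had 6.32 to 9.69 CPM of mt-Tc and 12.3 to 16.7 CPM of mt-Tp. Without mouse 93 the list kept 10 of 14 lower, and the integrity of each library's RNA is not in the sources used here beyond a common minimum.

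Genes of vessels and meninges were mixed, 6 of 13 higher with a median of -0.04, and without mouse 93 all 13 were higher with a median of 1.32. Fap, a protease of fibroblasts, was the 1 member of 13 with an unadjusted p under 0.05 (-1.71 ± 0.75, log2 and SE, unadjusted p = 0.0426, edgeR). At that threshold 1.73% of all rows and 4.84% of named genes were lower. Fap was at 1.17 to 1.95 CPM in App-low mice, at 1.15 to 1.52 CPM in mice 67, 68 and 69, and at 0.168 CPM in mouse 93. Postn and Foxc1, a matrix protein and a transcription factor of mesenchymal cells, differed by 0.61 ± 0.51 and 0.42 ± 0.35.

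Set against Wt, App-high mice had 1 row called higher (0.00628%) and 0 lower (0%), and App-low mice had 3 called higher (0.0188%) and 0 lower, all by edgeR. DESeq2 called 5 and 105 rows. The App-high count became 140 without mice 67 and 93, and the App-low count became 393 without Wt mouse 12, 7 without Wt mouse 80, 1 without Wt mouse 79 or Tg mouse 92, and 0 without Tg mouse 68, 69, 91 or 93. Without Wt mouse 12 or 95 the App-high count was 2. Because both comparisons share the Wt libraries and the named rows come from a table of Tg against Wt, no difference between them was read from the counts.

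The split by App nearly follows sex, so the labelled comparison was run beside it. Between Tg male and Tg female mice with batch in the fit, 1 row was called lower (0.00628%) and 0 higher by edgeR, and the row was Xist (-14.7 ± 0.73, log2 and SE, adjusted p = 5.73e-05). Prnp differed by 0.31 ± 0.25 between the sexes and was not called. The female mouse 93 was placed with the App-high males by its own App level, so that level adds nothing to this comparison.

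The pair of groups that shared sex and batch was the female 93 against the females 32, 91 and 92, with 1 library on the App-high side and so no test. Mouse 93 was above all 3 for App (5145 against 2991 to 3393 CPM), Prnp (913 against 579 to 654 CPM), Gfap (329 against 231 to 260 CPM), Hk1 (264 against 216 to 233 CPM) and Cd14 (5.81 against 3.19 to 4.2 CPM). It was below all 3 for Ttr (11.7 against 898 to 1581 CPM), Mbp (680 against 1631 to 2999 CPM) and mt-Tp (15.6 against 20.4 to 24.5 CPM). App set the split, and Prnp, Hk1, Cd14 and mt-Tp were described above because their groups did not overlap. The place of mouse 93 in these genes was therefore fixed and adds nothing. The share of all rows in which mouse 93 lay outside the App-low range is not given here. With the choroid plexus score in the fit over all 12 libraries, 0 rows were called between App-high and App-low mice by edgeR (367 at an unadjusted p under 0.05). The Prnp difference was then 0.33, against 0.50 without the score. Ace went from -0.80 to 0.22 and Mbp from -0.87 to 0.43, none of them called. Without sex and batch in the fit 0 rows were called as well (566 at an unadjusted p under 0.05).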

How the data were processed

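Total RNA of 12 mouse brain sections was sequenced by the authors (Ion Torrent S5XL) after removal of ribosomal RNA, aligned to mm10 (GRCm38) with STAR and Bowtie2, and counted per gene. Versions are not given in the sources used here. Reads were counted where unique and unambiguous. The authors removed low count genes with edgeR and deposited raw counts of 15928 rows without gene names. A second deposited table gives each library's size, batch, sex and TMM normalization factor, a ratio that the authors computed with edgeR. Sex was taken from the labels and batch from that table.

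Rows were named by the single match of their mean size-factor-normalized count to the mean in the study's DESeq2 table, at a relative difference under 1e-09. Of its 1684 genes 1349 were paired. 4 with date-like symbols stayed unnamed, and 0 pairs arose in 10 trials with shifted means. That table also holds the study's fold changes and p-values, which were not used. Unnamed rows entered every test. Coordinates and the App sequence are from GENCODE M21 (GRCm38).

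The split, the lists and the tests were chosen with earlier results of these data known. edgeR 4.0.16 (R 4.3.3) fitted all 12 libraries with groups App-high, App-low and Wt plus sex and batch, the study's covariates (quasi-likelihood test, TMM, filterByExpr, which removed 0 rows). Rows were called at a Benjamini-Hochberg adjusted p under 0.1, as in the summary of the study's DESeq2 output. The study's text states a stricter threshold for the same number of genes that its summary lists at this one. The biological coefficient of variation was 0.204. Tg sexes were compared in the 7 Tg libraries with batch. CPM are TMM-scaled, and log2 CPM used a prior count of 2. Permutation tests were exact and two-sided. The scripts were tested on simulated counts with rows changed between App-high and App-low. Of 100 rows changed 2-fold, edgeR called 49% and DESeq2 57%, and of 100 changed 4-fold 92% and 94%. They also called 11 and 44 unchanged rows. A count of 0 calls thus leaves room for rows that differ 2-fold or more. The simulated rows had no difference by sex, by batch or within a group. Their shares therefore do not carry over to rows split within App-high mice, as the choroid plexus markers were. In the real counts Wfdc2, at -3.53 (log2), was not called (adjusted p = 0.675 by edgeR). Libraries were separate mice, and no pair agreed within sampling noise. Alternatives covered DESeq2 1.42.0, DESeq2 size factors, filters, threshold, covariates, batch 1, the 7 Tg libraries, App as a slope, a choroid plexus score and each library left out. Counts, Prnp and the lists were also recomputed without mice 67 and 93, and counts and Prnp with Wt mouse 41 as female, both chosen after seeing the data. Python 3.11.15 with scipy 1.17.1 made the tables.

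Genes named were App, Prnp, Xist, Gfap, Cst7, Ttr and Mbp, the 10 named rows with the smallest p between the groups, the 3 of each list with the smallest p, the called rows and the 5 most correlated with App. Sorl1 and Wdsub1 were added outside this rule, after their values were seen. The depth was 15768135 to 20996174 counts per library, and the spread between mice limits the precision.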

Additional observations from a re-analysis of the deposited data

Results flagged for a closer look

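Each gene described singly above was checked for a library that stood apart from the rest of its genotype. The measure was the gap to its nearest neighbour over the whole range of the group (Dixon's test, 95% critical value). Chance alone marks about 1 in 20 groups, and 9 of 116 groups were marked. Among the Tg mice, mouse 93 was the lowest for Adk at 31.5 CPM (next 40.5 CPM) and for Fap at 0.168 CPM (next 1.15 CPM). Mouse 92 was the highest for Furin at 47.4 CPM (next 40.5 CPM). Among the Wt mice, mouse 41 was the lowest for Adk at 31.6 CPM (next 35.7 CPM) and for Col8a2 at 1.11 CPM (next 2.42 CPM). Mouse 80 was the lowest for Cort at 1.36 CPM (next 2.59 CPM) and the highest for Scn10a at 1.71 CPM (next 0.833 CPM). Mouse 95 was the lowest for Prox1 at 10.02 CPM (next 14.3 CPM) and for Xist at 0.0563 CPM (next 149 CPM), and it is the Wt library labelled male whose Xist matches its label.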

How the results depend on the processing

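Between App-high and App-low mice, DESeq2 size factors, either filter, no covariates, batch 1 alone, the choroid plexus score, App as a slope and an adjusted p under 0.05 all left 0 rows called. DESeq2 called 10, the 7 Tg libraries with sex and batch 34, and the fit without mice 67 and 93 1 row. Leaving out each library gave 0 to 48 (48 without Wt mouse 12). Against Wt, App-high calls were 5 with DESeq2, 0 in batch 1, 0 with Wt mouse 41 as female, 140 without mice 67 and 93, and 0 to 2 over libraries left out. App-low calls were 105 with DESeq2, 0 without covariates, 0 in batch 1, 0 with the choroid plexus score, 5 with Wt mouse 41 as female, 0 without mice 67 and 93, and 0 to 393 over libraries left out (393 without Wt mouse 12). Between Tg sexes, DESeq2 called 24 rows, and leaving out each Tg library gave 1 to 23 (23 without mouse 93, 16 without mouse 32). Without mouse 67 that fit could not be made, because sex and batch then coincide. The causes were not tested.

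Prnp kept its direction, from 0.26 to 0.60 on the log2 scale over libraries left out, except at -0.13 without mice 67 and 93. Of the genes described singly above, 3 were called by DESeq2 (Col8a2, Drc7, Wfdc2). In the 7 Tg libraries with sex and batch 3 of them were called (Col8a2, Drc7, Ttr). Over libraries left out 0 to 7 of them were called, 7 without Wt mouse 12. Counted over all named choroid plexus markers, 15 of 23 were called in that fit of the 7 Tg libraries. Uncalled log2 differences changed sign as follows. With the choroid plexus score they were Ace 0.221, Cacna1e -0.043, Fth1 0.024, Gad2 -0.023, Itpkb 0.084, Mbp 0.426, Mef2c -0.264, Scg2 -0.128 and Zic1 0.197. Without covariates they were Foxc1 -0.101, Gad2 -0.190, Six3 -0.289 and Zic2 -0.157, and in the 7 Tg libraries without covariates Foxc1 -0.099, Gad2 -0.186, Six3 -0.288 and Zic2 -0.153. In the 7 Tg libraries with sex and batch they were Gad2 -0.070 and Six3 -0.811. Over libraries left out, the ranges that crossed 0 were -0.115 to 0.272 for Cacna1e, -2.429 to 0.159 for Fap, -0.036 to 0.513 for Gad2, -0.155 to 1.039 for Ly86, -1.793 to 0.724 for Mbp, -0.105 to 0.281 for Mef2c, -0.141 to 3.920 for Six3, -0.092 to 0.340 for Slc17a7, -0.026 to 0.374 for Slc1a3, -7.294 to 2.274 for Ttr and -2.363 to 1.023 for Zic1. The sign turned without mouse 93 in all of these but Gad2 and Six3, without mouse 67 also for Ttr and for Gad2, without mouse 92 for Gad2, and without Wt mouse 12 for Six3. In the fit without mouse 93, group and sex were separated through the Wt libraries alone.

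No paired analysis was possible because the groups share no replicate numbers. Counts of any 2 mice of a genotype differed by a chi-square of 17.7 to 164 per row, more than counting error alone would give. That mean over rows leans on rows with many counts. In genes with few counts, such as Fap at 0.168 CPM in mouse 93, counting error can be a large part of the spread. Its part was not measured gene by gene.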
